A study of Drosophila melanogaster with 2 samples.

Results

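The tubulin genes of Drosophila melanogaster were followed in posterior midguts in which Gli-RNAi had been induced. The family is represented by 9 named genes of the 13822 loci in the deposited transcript table: the alpha tubulins alphaTub84B, alphaTub84D, alphaTub67C and alphaTub85E, the beta tubulins betaTub56D, betaTub60D, betaTub97EF and betaTub85D, and the gamma tubulin gammaTub23C. They were found by symbol, and where a locus had several transcripts, that with the highest mean read count over the 6 libraries stood for it. The transcript was thus chosen by its mean reads over both conditions together, and the difference between conditions played no part in that choice. The induced group and the control group both came from 9-day-old females of the strain 5966GS-GAL4; UAS-Gli-RNAi, raised at 25 ºC. In the induced group RU486 switched on the RNAi against Gli (gliotactin, a membrane protein of tricellular junctions), and the control group had ethanol alone and stayed uninduced. The driver is a GeneSwitch line used for enterocytes, the absorptive cells of the gut, while RNA came from the whole dissected tissue, from 75 midguts per condition, pooled at extraction. Each condition had 3 libraries, which the labels call biological replicates, so p-values reflect only how far libraries differ from each other, part of which may be technical. An effect of RU486 itself cannot be told apart from that of the knockdown.

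Microtubules are hollow polymers of paired alpha and beta tubulin, and gamma tubulin, held in a ring complex, starts their growth. Flies carry several genes for each class. Some are used in nearly all cells, and others serve particular tissues such as muscle, testis or the egg. In epithelial cells of the gut, microtubules carry cargo between the apical and basal sides, and in dividing stem cells they build the spindle.

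The libraries held between 6821908 and 14303722 reads, with 1 transcript counted per locus. Gli had normalised counts of 882, 895 and 920 in the induced libraries, against 2066, 1973 and 1847 in the control libraries, so the targeted gene was lower in all 3 induced libraries. A normalised count is the number of reads divided by a scaling factor whose mean over the libraries is 1. Of 8236 genes tested with edgeR's quasi-likelihood test, 54.3% passed an adjusted p of 0.05, with 27.6% higher and 26.8% lower in the induced libraries, and the libraries of the conditions did not overlap for 60.4% of all genes tested. Of 4 enterocyte markers 2 rose (nub and mesh) and 1 fell (Npc1b), and in sum they were abundant in both conditions, between 49751 and 51582 normalised counts in sum in the induced libraries and between 41219 and 46923 in the controls.

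Of the 9 tubulin genes 6 were read deeply enough to be tested. Of these, betaTub60D, alphaTub84B, betaTub56D, gammaTub23C and alphaTub84D were higher in the induced libraries and betaTub97EF did not pass the test. The largest change of the family was that of betaTub60D, whose level per length in control midguts was below those of betaTub56D and betaTub97EF. The other 3 genes, alphaTub67C, alphaTub85E and betaTub85D, were near or at 0 reads. Since the 6 tested genes are those that passed a filter on low counts, their number is read only beside the 27.6% of all tested genes that were higher.

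**Figure D1:**
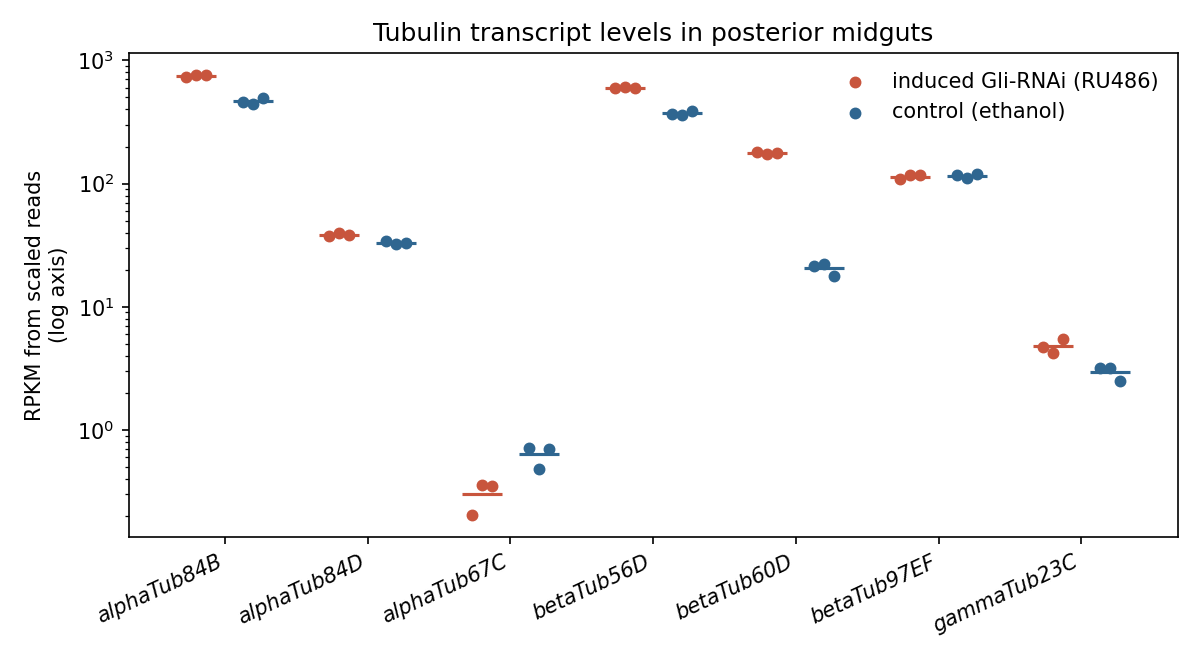
Level of 7 tubulin genes in each library, as RPKM from scaled reads on a log axis, with induced Gli-RNAi libraries in red, control libraries in blue and the mean of 3 libraries as a bar. The points of betaTub60D lie near 177 in the induced libraries and near 20.5 in the controls, while those of betaTub97EF overlap.

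The main alpha tubulin gene of these midguts was alphaTub84B, which is used in nearly all fly tissues. Its normalised counts were 13141, 13530 and 13498 in the induced libraries, against 8126, 7884 and 8809 in the control libraries. Every induced library lay above every control library, and the highest control library was control replicate 3. The gene rose by 0.70 ± 0.051 on the log2 scale (SE), which is 1.62-fold (edgeR quasi-likelihood test, adjusted p = 4.2e-08). The authors' deposited table gives a log2 fold change of 0.672 for it. Its transcript, NM_057424, has 1834 bases in 2 exons and lies on the plus strand of chromosome 3R from 2912260 to 2914582, in the unnamed genome build of the deposited table.

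The second alpha tubulin gene, alphaTub84D, encodes a protein nearly identical to that of alphaTub84B, so reads of their shared coding sequence may have been assigned to either, and the values of both are uncertain to that extent. It had normalised counts of 909, 968 and 924 in the induced libraries, against 820, 780 and 803 in the controls. The groups did not overlap, but the gap between the lowest induced and the highest control library was small beside that of alphaTub84B. The increase was 0.22 ± 0.060 (log2, SE; edgeR quasi-likelihood test, adjusted p = 0.0066), or 1.17-fold. Without control replicate 2 it was 0.17 and no longer passed (adjusted p = 0.054). The authors' deposited table gives a log2 fold change of 0.203, a mean over transcripts.

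The deposited table holds 2 transcripts of alphaTub84D, on the plus strand of chromosome 3R from 3356377 to 3358873. The transcript counted, NM_079540, is a single exon of 2497 bases, and NM_169189 lacks 206 of these bases. The stretch that the second transcript lacks held 165, 116 and 122 reads in the induced libraries, against 70, 112 and 65 in the controls. As a share of the reads of the longer transcript this was between 11.5% and 13.4% in the induced libraries and between 11.9% and 13.4% in the controls. The share of reads in this stretch thus covered nearly the same range in both conditions.

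Levels of different genes can be compared only per length, and for this RPKM values were computed from the scaled reads and the transcript lengths of the table. On this scale alphaTub84B stood at 753 ± 12.1 in the induced libraries and 465 ± 27.0 in the controls (SD, n = 3 each), which ranked it 179 in the induced libraries and 267 in the controls among the 8236 genes. The level of alphaTub84D was 38.6 ± 1.26 in the induced libraries and 33.1 ± 0.832 in the controls. The level of alphaTub84B was thus between 19.0 and 19.9 times that of alphaTub84D in the induced libraries and between 13.5 and 14.9 times in the controls.

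Among the beta tubulins betaTub56D, the general beta tubulin gene of the fly, was the most abundant. Its normalised counts were 9345, 9562 and 9306 in the induced libraries, against 5785, 5613 and 6117 in the controls. All induced libraries lay above all control libraries. It rose by 0.69 ± 0.048 (log2, SE), or 1.61-fold (edgeR quasi-likelihood test, adjusted p = 2.5e-08). The authors' deposited table lists 0.668 for it, a mean over transcripts. Its 4 transcripts have 2 exons each on the minus strand of chromosome 2R. The transcript counted, NM_079071, of 1613 bases from 15334824 to 15339122, had the most reads. The other 3, NM_166355, NM_166356 and NM_166357, held between 3.13% and 7.89% fewer reads than NM_079071 in any library.

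The level of alphaTub84B per length was 1.24, 1.24 and 1.28 times that of betaTub56D in the induced libraries, against 1.24, 1.24 and 1.27 times in the controls. The ratio of the 2 main tubulin genes therefore had almost the same range in both conditions while both rose. Each was also the nearest gene to the other when the log2 normalised counts, centred over the 6 libraries, were compared with those of 6837 genes whose mean reached 50. The root mean squared distance between them was 0.0186 on the log2 scale. Next nearest to alphaTub84B was CG13321 at 0.0225, and next nearest to betaTub56D was CG15255 at 0.0213. These distances describe 6 libraries in 2 conditions and carry no test.

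The gene betaTub60D, known in flies as the beta tubulin of developing mesoderm and muscle and of several cells that change shape, showed the largest difference of the family. Its normalised counts were 4369.5, 4266 and 4319 in the induced libraries, against 522, 541 and 436 in the control libraries. The induced libraries lay close together and far above the controls, of which control replicate 3 was the lowest. The mean was 4318 ± 51.7 in the induced libraries and 499.9 ± 55.8 in the controls (SD, n = 3 each). The increase was 3.10 ± 0.071 (log2, SE), or 8.58-fold (edgeR quasi-likelihood test, adjusted p = 2.4e-13). It stood at rank 38 among the 8236 log2 fold changes, counted from the highest. The authors' deposited table lists a log2 fold change of 3.093 and prints its smallest p-value as 0, a rounded value.

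A single transcript of betaTub60D was listed, NM_079118, with 2521 bases in 4 exons on the plus strand of chromosome 2R from 20193405 to 20200626. Per length, the level of betaTub60D was 179, 175 and 177 in the induced libraries, against 21.4, 22.1 and 17.9 in the controls. By this level it ranked 543 of 8236 genes in the induced libraries and 3006 in the controls. The genes whose pattern over the 6 libraries lay nearest were Mmp2, which encodes a matrix metalloprotease (root mean squared distance 0.0651, log2 fold change 3.13), and Erasp (0.108, log2 fold change 3.21).

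**Figure D2:**
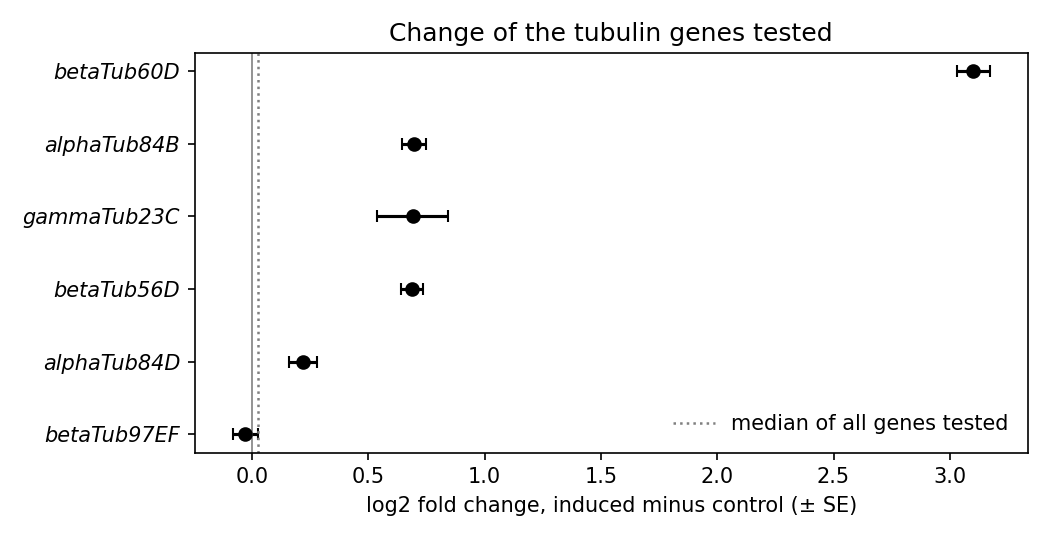
Log2 fold change (induced minus control) of the 6 tubulin genes tested, with the SE as a bar and the median of all genes tested, 0.0271, as a dotted line. The point of betaTub60D lies at 3.10, those of alphaTub84B, gammaTub23C and betaTub56D at 0.69 to 0.70, and that of betaTub97EF, at -0.03, near the median.

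The last beta tubulin gene with many reads, betaTub97EF, is known from fly work as a tubulin gene that is raised at low temperature. Its normalised counts were 1967, 2122 and 2120.1 in the induced libraries, against 2146, 2024 and 2166 in the controls. The libraries of the conditions overlapped. The log2 fold change was -0.03 ± 0.055 (SE; edgeR quasi-likelihood test, adjusted p = 0.68), a difference that was not detectable at this depth and spread. The sign depended on the scaling: with library totals, which moved the median of all genes from 0.0271 to 0.216, the log2 fold change was 0.16 (adjusted p = 0.0177), still below that median. The sign also turned without induced replicate 1, at 0.0093. The table lists 2 transcripts, on the minus strand of chromosome 3R from 23792730 to 23814089. The extra 195 bases of NM_143349, the transcript counted, held between 2 and 5 reads in the induced libraries and 1 or 2 in the controls. Levels per length of this gene were computed over all 1879 bases of NM_143349, while NM_001170282 has 1684. They are thus likely too low in both conditions.

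The make-up of the beta tubulin class differed between the conditions. Per length, betaTub60D took 20.2%, 19.3% and 19.9% of the summed beta tubulin level in the induced libraries, against 4.196%, 4.50% and 3.38% in the controls. The share of betaTub97EF was 12.2%, 12.9% and 13.1% in the induced libraries, against 23.1%, 22.6% and 22.5% in the controls. Its own level per length was 114 ± 4.90 in the induced libraries and 116 ± 4.23 in the controls (SD, n = 3 each). The lower share thus came with a larger beta sum. For betaTub56D the share averaged 67.4% ± 0.393 in the induced libraries and 73.2% ± 0.759 in the controls (SD, n = 3 each). None of these shares overlapped between the conditions. In the induced libraries betaTub60D was the second beta tubulin gene by level, at 1.498 to 1.66 times the level of betaTub97EF, and in the controls the third, at 0.150 to 0.199 times. The length used for betaTub97EF takes in a stretch with almost no reads. Its levels and shares and the beta sum are therefore likely too low, and these ratios and the other beta shares too high.

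**Figure D3:**
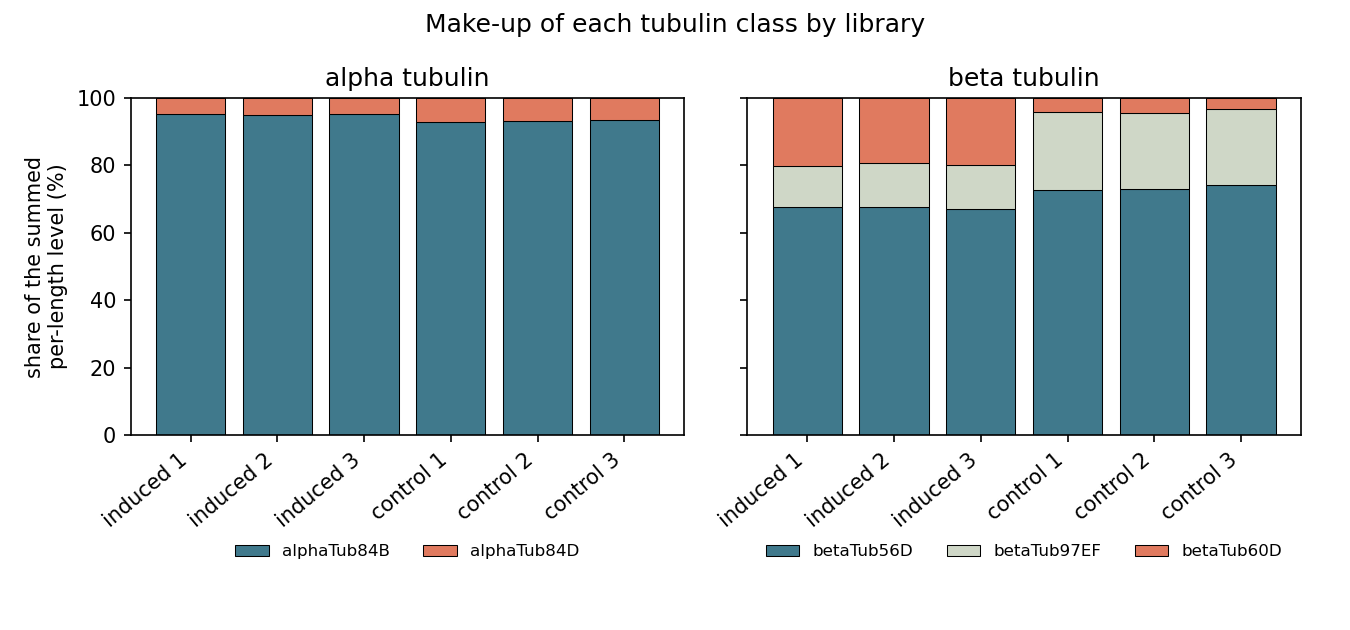
Share of each gene in the summed per-length level of the alpha tubulins and of the beta tubulins, as stacked bars for each of 3 induced and 3 control libraries. The share of betaTub60D is near 20% in the induced libraries and near 4% in the controls, while alphaTub84B holds at least 92.96% of the alpha class in every library.

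Within the alpha class alphaTub84B held 95.1% ± 0.116 in the induced libraries and 93.2% ± 0.333 in the controls, and alphaTub84D held 4.87% ± 0.107 in the induced libraries and 6.64% ± 0.333 in the controls (SD, n = 3 each). The summed alpha level was 792 ± 13.2 in the induced libraries and 499 ± 27.3 in the controls, and the summed beta level was 892 ± 9.61 in the induced libraries and 509.8 ± 17.9 in the controls. The alpha sum was 0.888 ± 0.0098 times the beta sum in the induced libraries and 0.978 ± 0.021 times in the controls. Because the beta sum takes in the likely too low level of betaTub97EF, both values are likely too high. For each of these shares and for the alpha to beta ratio, a 2-sided exact permutation test over libraries gave p = 0.10, the smallest that 3 against 3 libraries allow, and 0.114 after adjustment over 8 tests. This test cannot give a p below 0.10 here, so that p says nothing of the size of a difference.

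The gamma tubulin gene gammaTub23C, which serves microtubule nucleation in most cells, was read at a far lower level. Its normalised counts were 85.3, 76.2 and 98.9 in the induced libraries, against 57.4, 57.1 and 45.2 in the controls. The groups did not overlap, and the scatter among libraries was wider than for the abundant tubulins. It rose by 0.69 ± 0.153 (log2, SE), or 1.61-fold (edgeR quasi-likelihood test, adjusted p = 0.0016). The authors' deposited table lists 0.689. Its transcript, NM_057456, has 1853 bases in 3 exons on the plus strand of chromosome 2L from 2972892 to 2974862. The level of gammaTub23C per length was 0.610% ± 0.080 of the summed alpha level in the induced libraries and 0.598% ± 0.106 in the controls (exact permutation p = 0.90), so its ratio to the alpha tubulins overlapped between the conditions. Its nearest genes in pattern were Rtel1 (distance 0.076) and rgn (0.077).

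The remaining members were at the edge of detection. The maternal alpha tubulin gene alphaTub67C, which serves the egg and early embryo, had 5, 5 and 6 reads in the induced libraries, against 8, 8 and 7 in the controls. It was below the filter on low counts, and the ratio of its scaled totals, induced over control, was 0.472 with an exact (Clopper-Pearson) 95% interval of 0.233 to 0.932, which covers counting error only. The summed normalised counts of 5 ovary and eggshell markers, also low, were between 4.43 and 6.35 in the induced libraries and between 20.6 and 23.4 in the controls. Among them osk had 2 induced and 20 control reads, and nanos had 13 induced and 24 control reads. The others, vas, Vm26Aa and Cp36, had 3, 1 and 0 induced reads and 4, 2 and 2 control reads. The part of ovarian RNA in the value of alphaTub67C was not tested. In bulk tissue fewer cells of a type and less RNA per cell cannot be told apart.

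The gene alphaTub85E, known from testis and from cells at muscle attachments, had 1 read in induced replicate 2 and 0 in the other 5 libraries. The testis beta tubulin gene betaTub85D, needed for sperm formation, had 0 reads in all 6 libraries, which allows a level of up to 0.210 to 0.370 RPM in the induced libraries and of up to 0.275 to 0.440 RPM in the controls. Of 4 testis markers aly and Mst87F were likewise at 0, can had 1 induced read and 0 control reads, and dj had 0 induced and 4 control reads. Relatives of the family that were not among the 9 genes were also near 0: gammaTub37C, the maternal gamma tubulin gene, had 3 induced reads and 1 control read, betaTub65B (CG32396 in the table) had 2 induced reads and 1 control read, and CG7794 had 7 induced reads and 1 control read.

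Markers of other cell types were read beside betaTub60D. Of 6 visceral muscle genes Tm1 (tropomyosin) rose by 0.51 ± 0.056, Mhc (myosin heavy chain) fell by 0.18 ± 0.063 (edgeR quasi-likelihood test, adjusted p = 0.031), and Mlc2, Tm2, up and wupA did not pass. Thus 16.7% were higher and 16.7% lower, beside 27.6% and 26.8% of all genes tested. The summed normalised count of these 6 genes was between 14564 and 15225 in the induced libraries and between 13916 and 14620 in the controls, ranges that overlapped. Tm1, with means of 5074 in the induced libraries and 3560 in the controls, raised the induced sums. The log2 fold changes of Mlc2, Tm2, up and wupA were -0.085, -0.13, -0.04 and -0.06, below 0 like that of Mhc. None of the 6 genes was at 0. No muscle gene fell without control replicate 1, control replicate 2 or any single induced replicate, and 2 fell without control replicate 3, while scaling by library totals gave 2 higher and 0 lower.

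All 4 progenitor markers rose (100%, beside 27.6% of all genes tested), or 3 without induced replicate 1. The normalised counts of zfh2 were 177, 160 and 153 in the induced libraries, against 144, 123 and 74.8 in the controls. Its log2 fold change, 0.51 ± 0.156, was the smallest of the 4. Sox21a, a transcription factor gene of stem cells and enteroblasts, had 1199 ± 32.9 in the induced libraries and 184 ± 5.49 in the controls, the Notch ligand gene Delta 424 ± 8.64 in the induced libraries and 150 ± 19.2 in the controls, and esg 1338 ± 69.9 in the induced libraries and 701 ± 49.6 in the controls (normalised counts, SD, n = 3 each). The sum of the 4 markers was between 3036 and 3228 in the induced libraries and between 1032 and 1211 in the controls. Of the other marker lists, the trachea sum was between 85.3 and 95.3 in the induced libraries and between 51.4 and 71.2 in the controls, with serp higher at 0.70 ± 0.172 and trh not past the threshold, although both were higher without control replicate 2. The haemocyte sum lay between 138 and 157 in the induced libraries and between 145 and 168 in the controls, and neither of the 2 haemocyte genes tested passed. The neuron sum lay between 113 and 132 in the induced libraries and between 93.5 and 155 in the controls, and 0 of 3 neuron genes passed. Of all genes tested 54.3% passed. Of 4 enteroendocrine markers 2 fell (50%, beside 26.8% of all genes tested) and 0 rose, or 1 rose with library totals as scaling. Their sum lay between 2557 and 2636 in the induced libraries and between 2871 and 2935 in the controls. The part of a change in cell types in the tubulin values was not tested.

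**Figure D4:**
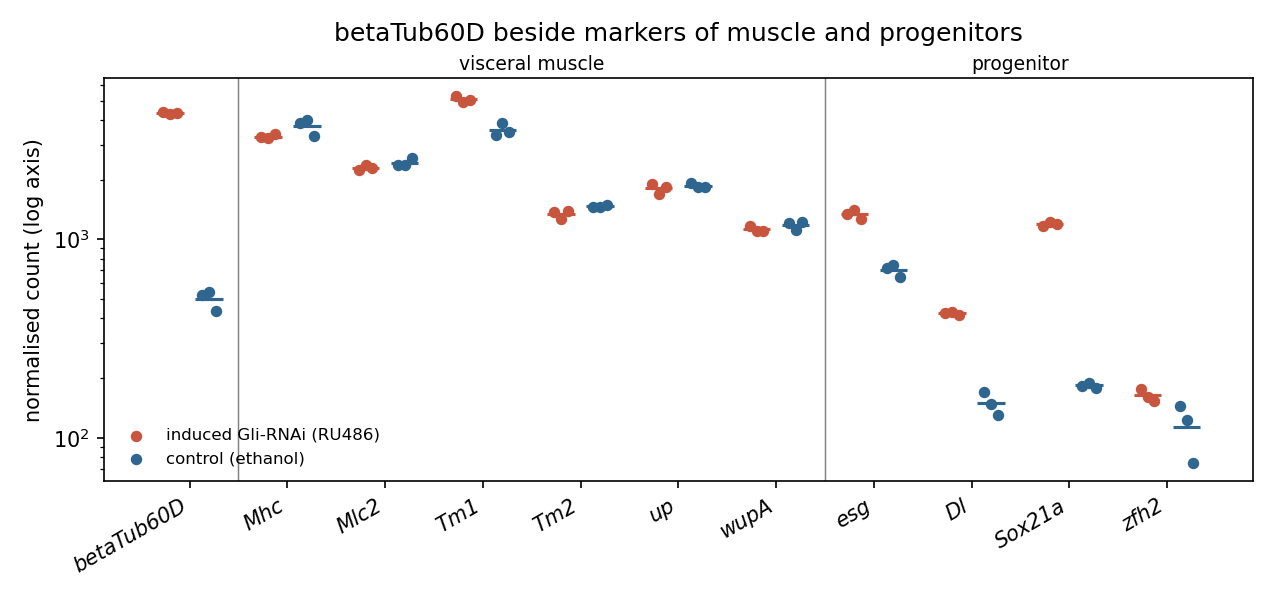
Normalised counts on a log axis of betaTub60D, 6 visceral muscle markers and 4 progenitor markers in each of 3 induced libraries (red) and 3 control libraries (blue), with the mean as a bar. The induced points of betaTub60D and Sox21a lie far above their control points, and those of Mlc2, Tm2, up and wupA lie near theirs.

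Genes that fold tubulin rose widely. Of 18 tested genes of the CCT chaperonin, prefoldin and the tubulin-binding cofactors 15 rose and 0 fell (83.3% against the 27.6% of all genes that were higher), with a median log2 fold change of 0.43 beside 0.0271 for all genes. All 8 CCT subunit genes, whose product folds tubulin and actin, were among them. CCT7 had 2004 ± 45.5 in the induced libraries and 1276 ± 65.5 in the controls, and CCT3 had 1927 ± 69.7 in the induced libraries and 1239 ± 27.8 in the controls. Tbca, which encodes a cofactor that holds beta tubulin, rose by 0.80 ± 0.096 and Pfdn4 by 0.66 ± 0.083. Pfdn2 (-0.11) and Pfdn5 (0.08) did not pass. The number that rose was 11 without induced replicate 1, 12 with the DESeq2 Wald test or without control replicate 1, and 17 with library totals as scaling.

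Among genes of the gamma-tubulin ring complex, the partner of gammaTub23C, the share that was higher was near that of all genes: 2 of 6 tested genes rose (33.3%, against 27.6% of all genes tested) and 1 fell (16.7%, against 26.8%). Grip71 and Grip163 rose, by 0.86 ± 0.267 and 0.47 ± 0.156, and Grip91 fell by 1.38 ± 0.113. Grip91 had 71.9 ± 4.30 in the induced libraries and 187 ± 16.1 in the controls. Grip84 (0.17) and Grip75 (0.30) did not pass. The number that rose was 0 without induced replicate 1 or control replicate 2, 1 without induced replicate 3 or control replicate 1, and 4 with library totals as scaling.

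Most tested genes of the kinesin list and of the dynein and dynactin list rose. Of 19 kinesin genes 14 rose and 1 fell, which is 73.7% and 5.26%, beside 27.6% and 26.8% of all genes tested (median log2 fold change 0.52). Among mitotic motor genes pav, of cytokinesis, had 37.7 ± 3.19 in the induced libraries and 5.98 ± 1.66 in the controls, cmet had 34.97 ± 2.93 in the induced libraries and 7.12 ± 0.627 in the controls, and sub and Klp61F rose by 1.81 ± 0.418 and 1.17 ± 0.189. With 15, 17 and 10 control reads in all, pav, cmet and sub passed the filter on low counts only through the induced libraries, so a difference was built into their being tested. Klp10A (0.27) and cos (0.08) did not pass. The gene that fell, Klp98A, named after its value was seen, fell by 0.45, and 2 kinesin genes fell without induced replicate 3 or control replicate 1. Khc, the heavy chain of the main transport kinesin, also named after its value was seen, had means of 2768 in the induced libraries and 1704 in the controls. Of 11 dynein and dynactin genes 8 rose and 0 fell, 72.7% and 0% (median 0.35), with Arp1 at 0.68 ± 0.057 and DCTN2-p50 at 0.63 ± 0.067, while ctp (0.05) and Dlic (0.19) did not pass. Of 13 genes of this list 12 were matched, and none of these was a dynein heavy chain, the motor subunit itself. Klp10A had 620, 630.1 and 622 in the induced libraries, against 564, 583 and 391 in the controls. Dlic had 878, 910.4 and 892 in the induced libraries, against 857, 894 and 577 in the controls. Control replicate 3 stood low for both, and without it their log2 fold changes were 0.12 and 0.02.

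Transcripts for proteins that bind microtubules were more often higher than lower. Of 14 genes of microtubule-associated proteins 10 rose and 2 fell, which is 71.4% and 14.3%, beside 27.6% and 26.8% of all genes tested (median 0.49). Jupiter, a microtubule-binding protein gene, had 868 ± 47.5 in the induced libraries and 276 ± 9.20 in the controls, the spindle pole genes asp and mud rose by 1.96 ± 0.318 and 1.57 ± 0.246, and mars rose by 1.09 ± 0.222. Of these asp and mud passed the filter only through the induced libraries. The spectraplakin gene shot (0.20) and stai (-0.04) did not pass. The counts of shot were 6170.5, 6567 and 6511 in the induced libraries, against 6026, 6240 and 4448 in the controls, with control replicate 3 apart, and without that library its log2 fold change was 0.06. Spread beyond counting error, given as a coefficient of variation over all genes tested, came to 0.0272 for induced libraries and 0.0795 for controls, and the test used a spread estimated over both. The 2 that fell were CLIP-190 at -0.31 and ens at -0.23, named after their values were seen. The number that fell was 1 without any single induced replicate or without control replicate 1 or 2, and 0 with library totals as scaling.

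Of 11 genes of tubulin modification and severing 3 rose and 4 fell, or 5 and 2 with library totals as scaling. The shares, 27.3% and 36.4%, stood beside 27.6% and 26.8% of all genes tested. HDAC6, whose product removes acetyl groups from alpha tubulin, had 899 ± 12.1 in the induced libraries and 1890.2 ± 84.3 in the controls, a change of -1.07 ± 0.057. The severing gene Kat60 rose by 0.80 ± 0.072. TTLL4B rose by 1.88 ± 0.362, with means of 13.8 in the induced libraries and 3.74 in the controls, and TTLL6B fell by 1.16 ± 0.312, with means of 10.3 in the induced libraries and 22.6 in the controls. Each of these passed the filter only through the condition where it was higher. The severing gene spas (0.21) and kat80 (-0.09) did not pass. Among 8 centrosome and centriole genes 6 rose and 0 fell, 75% and 0% (median 0.99), and of the 6 ana2 passed the filter only through the induced libraries. Leaving out control replicate 3 made Plp lower, at -0.21. The centrosome gene cnn had 265 ± 21.96 in the induced libraries and 85.1 ± 6.18 in the controls, asl, Sas-4 and SAK rose by 1.63 ± 0.222, 1.23 ± 0.243 and 1.14 ± 0.107, and Plp (-0.10) and Sas-6 (0.47) did not pass. Over all these lists together 58 of 87 tested genes rose and 8 fell, which is 66.7% and 9.20%, beside 27.6% and 26.8% of all genes tested. Of the 58 that rose 7 had passed the filter only through the induced libraries, and of the 8 that fell 1 had passed only through the controls. The lists were chosen with earlier results of these data known, and the genes tested were not matched to them for depth. These shares are therefore a description and carry no test.

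**Figure D5:**
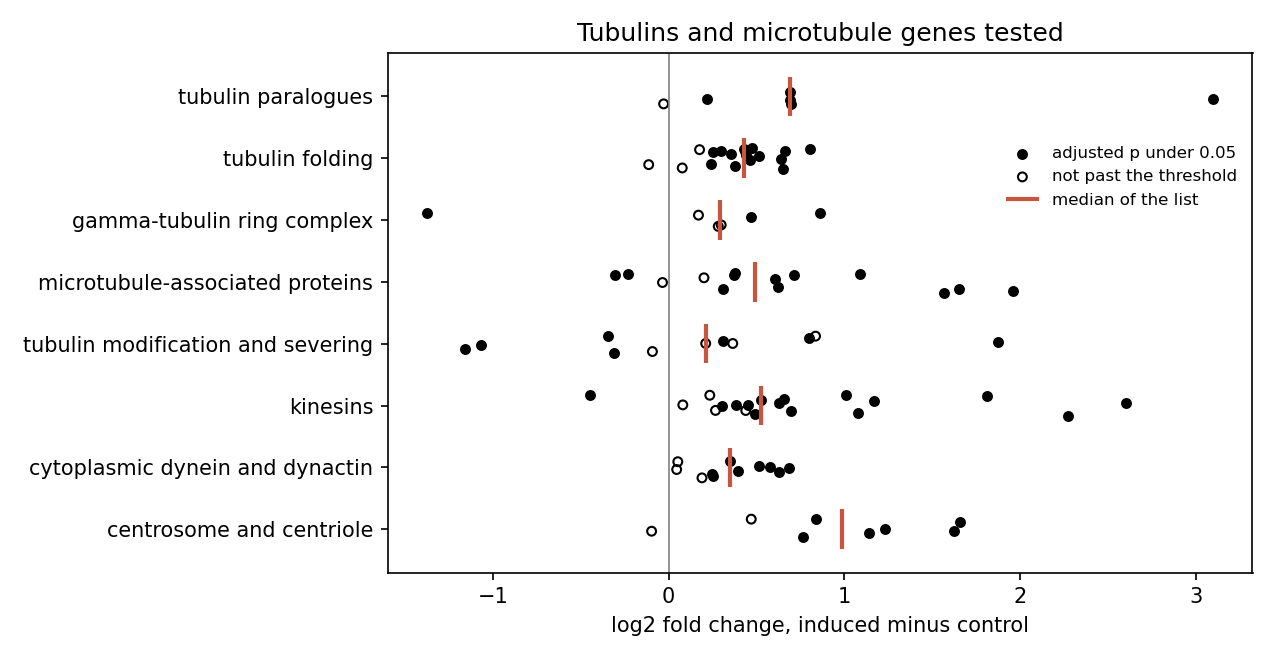
Log2 fold change (induced minus control) of each tested gene of the tubulin family and of 7 lists of microtubule genes, with filled points past an adjusted p of 0.05, open points not past it, and the median of each list as a red bar. The point of betaTub60D, at 3.10, lies to the right of every gene of the lists, of which pav, at 2.60, is the next.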

How the data were processed

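Poly(A) RNA of whole posterior midguts was sequenced. Per the file headers, the authors deposited raw read counts per transcript for 6 libraries, a normalised signal per length and, in a second table, log2 fold changes with p-values. The submitters' processing notes name DESeq, and the sources used here do not state the aligner, counter, strand setting or genome build. Reads in exons common to several transcripts enter the count of each. The log2 values run induced over control, as the counts show, although the header gives the opposite order.

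For each of 13822 loci the transcript with the most reads on average was used, and symbols were updated by Entrez identifier (RefSeq, release 6). Differences were tested with edgeR 4.0.16 in R 4.3.3 (quasi-likelihood F test, TMM, default filter, Benjamini-Hochberg over 8236 genes, adjusted p under 0.05), and the procedure was tested on simulated counts. With 50 genes changed at each size, it recovered 82% at 1.5-fold and 94% at 2-fold, and called 0.162% of unchanged genes. The simulation had the same spread in all libraries and few changed genes. It therefore does not cover the unequal spread and the many changed genes of these data. The SE was derived from the log2 fold change and its F statistic. RPKM were computed from TMM-scaled reads. No exon of the 9 genes overlaps that of another gene in the Ensembl release 6 annotation. DESeq2 1.42.0 and limma 3.58.1 served as alternatives. Named list genes were at most 4 past the threshold with the largest change and at most 2 not past it with the highest mean. List genes were matched by current, deposited or older symbol to the transcript that stood for each locus, so 103 of 112 microtubule genes were matched. A list gene in a shared locus was left out where another gene's transcript stood for that locus. It was kept where its own transcript did. The members and lists were chosen with earlier results of these data known.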

Additional observations from a re-analysis of the deposited data

How the results depend on the processing

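The log2 fold change of betaTub60D stayed between 3.02 and 3.29 over 15 alternatives, and those of alphaTub84B, betaTub56D and gammaTub23C between 0.63 and 0.89, 0.63 and 0.88, and 0.600 and 0.879, all past the threshold. For alphaTub84D the change lay between 0.17 and 0.24 over the fits that leave out a library and between 0.17 and 0.41 over all alternatives, highest with library totals, with adjusted p-values between 9.6e-05 and 0.054. For betaTub97EF it lay between -0.089 and 0.0093 over those fits and was 0.16 with library totals. With library totals 3737 genes were higher (71.2% of those called, against 50.8%) and 4 genes of the microtubule lists were lower. Between 0 and 1 members were lower when a library was left out. The exception was alphaTub67C, which passed the filter without induced replicate 2, at -1.19 (adjusted p = 0.0456), and had -1.05 with no filter (adjusted p = 0.085). At an unadjusted p under 0.05 the number of members lower was 0 in the main setting, with DESeq2 and with limma-voom. In those settings alphaTub67C was below the filter and was not tested. The number was 1 with no filter and 1 without induced replicate 2. The gain of betaTub60D in the beta class, 15.8 percentage points, was 16.6 with the longest transcript. The difference in the share of betaTub97EF, -10.0 points, was -10.8 with the longest transcript and -10.5 with transcripts summed. With the authors' signal, chosen after seeing the data, it was -10.004, equal to the main value. A share within a library is unaffected by the scaling of that library, so this signal per length adds no separate check. The ratio of gammaTub23C to the alpha sum changed by between -0.048 and 0.053 points when a library was left out, so its sign is not settled. Libraries with the same replicate number in the column names showed no clear pairing (correlations of deviations -0.155, 0.0457 and -0.09). With deviations taken within 3 libraries per condition, these correlations cannot decide whether the libraries were paired. With the replicate block 2197 genes were higher and 2144 lower, and the number of members higher was 5, as without it. The cause of these shifts was not tested.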
